A study of Mus musculus with 4 samples.

Results

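The difference between BLT2-deficient and wild-type mouse skin that was common to unwounded and wounded tissue was measured on 4 Illumina MouseWG-6 bead arrays. One pair of arrays, WT and BLT2KO, held intact skin of wild-type and of BLT2 receptor deficient mice, and the other pair, WT_punched and BLT2KO_punched, held skin of both genotypes collected 2 days after it had been punched. All mice had the C57Black6/J background, and the RNA came from punch biopsies 5 mm across. Each array held 1 pool of RNA from 3 mice. The age, sex and hair cycle stage of the mice, the way the BLT2 allele was made, and whether pools shared mice are not stated in the labels. With 1 pool per group, a difference in hair cycle stage cannot be told apart from a difference in genotype. A log2 level of each gene was fitted with a term for wound state and a term for genotype, and the genotype term, BLT2KO minus WT, is the quantity described here, with 2 arrays on each side. Of 19057 genes named on the array, 10195 had a detection p-value under 0.01 on at least 2 arrays and were tested. The other 8862 were not tested.

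BLT2 is the low-affinity receptor for leukotriene B4 and also binds 12-HHT, a hydroxylated fatty acid made alongside thromboxane, and in skin it is found on keratinocytes. Its gene, Ltb4r2, lies directly beside Ltb4r1, the gene of the high-affinity leukotriene B4 receptor BLT1. Skin also holds hair follicles, which pass through cycles of growth, regression and rest. The growing follicle makes a shaft from hair keratins that are cross-linked by keratin-associated proteins, and surrounds it with an inner root sheath hardened by trichohyalin and by enzymes that turn arginine into citrulline.

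The genotype term was above 0 with an adjusted p under 0.05 for 82 genes (0.804% of those tested) and below 0 for 13 (0.128%), by limma with Benjamini-Hochberg adjustment over all 10195 genes. Hair follicle genes made up most of the first group. Of the 82 genes that rose, 47 (57.3%) belonged to 4 lists of hair shaft and follicle genes, which together held 69 (0.677%) of the genes tested. Of the 13 that fell, 9 lie on chromosome 14, which carries Ltb4r2. Detection limits the folds, since of the 82 genes 34 were detected on both WT arrays, 23 on 1 and 25 on neither. The detection filter fixed the direction of the 25, and hair genes are among them, so the 47 are not all tested rises. Of tested members, 16 in the keratin-associated list, 1 in the inner root sheath list and 1 in the hair matrix list were detected only on the BLT2KO arrays. For the hair shaft keratins this was 0. The 34 genes detected on both WT arrays rose 2.01- to 51.9-fold. For the other genes a fold is written as "at least", with each undetected level raised to the lowest detected level of its array. The genes that fell were 2.01- to 9.20-fold lower. All 95 calls (0.932% of those tested) had the same sign in unwounded and in punched skin. The fit favours genes with like differences in the 2 states, so this is no separate check of the calls. Of all 10195 genes tested, 2767 were above 0 in both states and 3593 below 0 in both. In both states 90 differed at least 2-fold as measured, and 80 with undetected levels raised in that way. 

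The scatter of the genotype difference in the 2 wound states shows these genes along the line of equal differences, with the hair genes at the upper right and Ltb4r1 and Supt16 at the lower left. Their nearness to the line follows in part from the calling, which favours like differences.

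**Figure D1:**
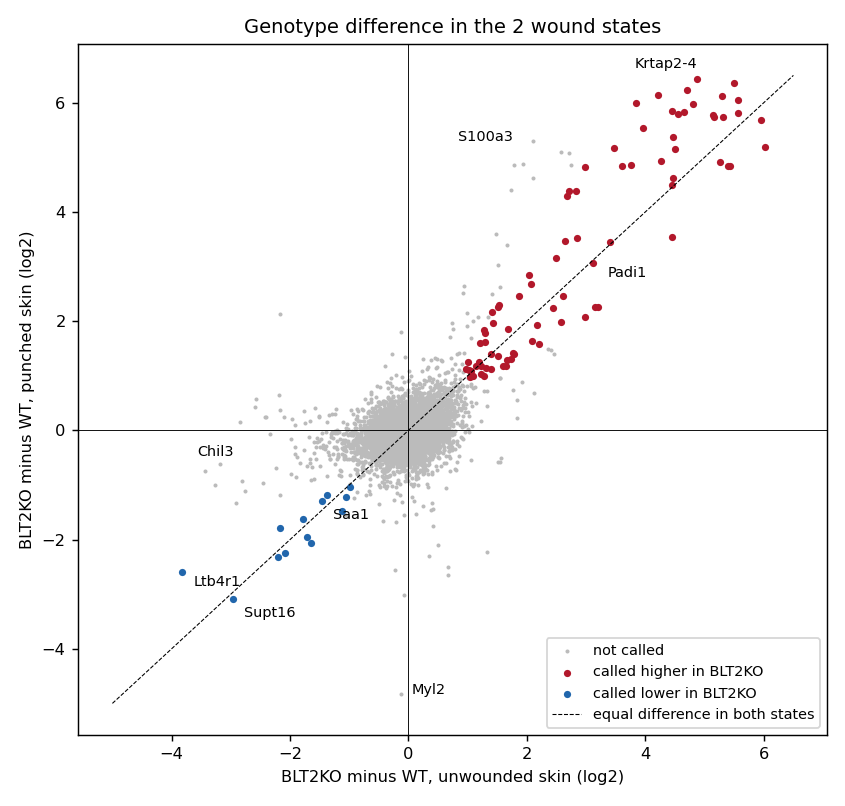
Each point is 1 of 10195 genes, with the log2 difference BLT2KO minus WT in unwounded skin on the horizontal axis and in punched skin on the vertical axis, 1 pool of 3 mice per array. Red points are the 82 genes called higher and blue points the 13 called lower by limma, and the dashed line marks equal differences in both states.

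The fit left 1 residual degree of freedom, which is the difference between the genotype ratios of the 2 states. Its p-values set the size of the term against a spread. That spread was drawn from this difference and from a prior variance shared by all genes, with 3.81 degrees of freedom. They hold no spread between mice. Without the wound term, 16 genes passed as higher and 1 as lower. From that fit, leaving out 1 array in turn gave 44 higher genes without WT, 20 without WT_punched, 6 without BLT2KO_punched and 0 without BLT2KO. None of these fits gave a lower gene by limma with Benjamini-Hochberg adjustment, while 297, 215, 555 and 231 genes in the same order had an unadjusted p under 0.05 in either direction.

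Defining genes of skin were high on every array. Krt14 of basal keratinocytes had log2 levels of 14.20 to 14.39, Krt10 of suprabasal keratinocytes 14.45 to 14.59, and Dcn of fibroblasts 13.39 to 13.63. Acta1 of skeletal muscle was at 14.39 to 14.47. The number of detected probes was 16383 on WT, 16551 on BLT2KO, 16512 on WT_punched and 17201 on BLT2KO_punched. Eif2s3y, on the Y chromosome, was detected on all 4 arrays at 7.72 to 8.63, while the Y genes Uty and Kdm5d were detected on 1 and 0. Xist was detected on 1 array, WT, at 5.26, near the lowest detected level of that array, 5.23.

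Keratin-associated proteins were the largest group. Of 42 genes of this list named on the array, 36 were tested and 32 rose, while 0 fell. For 16 of the 36, detected only on the BLT2KO arrays, the detection filter fixed the direction. The median genotype term of the 36 was 4.71 on the log2 scale, or 4.67 with members undetected in WT skin at their lower bound, against -0.03 over all genes tested. On the WT arrays the 32 risen genes had levels between 4.25 and 7.74, and on the BLT2KO arrays between 5.45 and 12.45. In bulk RNA, fewer cells of a type and less RNA per cell cannot be told apart.

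The largest term belonged to Krtap2-4, which encodes a matrix protein of the hair shaft. It stood at a log2 level of 6.11 in WT and 4.89 in WT_punched skin, and 11.61 in BLT2KO and 11.25 in BLT2KO_punched skin. It was not detected in WT_punched skin. Both BLT2KO arrays lay far above both WT arrays, and the fitted term was 5.93 ± 0.23 (SE, 2 arrays a side), with an adjusted p of 0.00159 by limma. With the undetected level raised it was at least 54.6-fold higher. Separation of this kind without regard to size was common on these arrays, since both BLT2KO arrays were above both WT arrays for 12.9% of the genes tested and below them for 14.7%. The 57 genes that rose and were detected on a WT array were all separated in this way, as were 12 of the 13 that fell. For the 25 detected only on the BLT2KO arrays the detection filter fixed the direction, and their separation is not counted.

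Krtap4-1 was not detected on either WT array, where it stood at 4.91 and 4.90, and was at 10.86 in BLT2KO and 10.59 in BLT2KO_punched skin. Measured against the lowest detected level of each WT array it was at least 45.7-fold higher. Its adjusted p of 0.000737 by limma was computed from the undetected WT levels, and its direction was fixed by the detection filter. Krtap1-5 was at 5.23 in WT and 4.40 in WT_punched skin, and at 10.79 and 10.45 in the BLT2KO arrays. It was detected on 1 WT array. Its fitted term was 5.81 ± 0.16 (SE), with an adjusted p of 0.000737 by limma, and with the undetected level raised it was at least 42.4-fold higher. These members are rich in cysteine, and so was the group around them on chromosome 11, where Krtap4-16 rose at least 38.8-fold, Krtap3-1 44.1-fold and Krtap9-1 46.2-fold.

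Members rich in glycine and tyrosine rose as well. Krtap6-2 had levels of 6.45 in WT, 5.52 in WT_punched, 12.02 in BLT2KO and 11.34 in BLT2KO_punched skin. The groups did not overlap, and the term was 5.70 ± 0.13 (SE), or 51.9-fold, with an adjusted p of 0.000737 by limma. Krtap7-1 rose 50.5-fold, and Krtap19-9b at least 49.3-fold, Krtap6-5 at least 43.8-fold and Krtap19-4 at least 35.0-fold. Families of this kind hold near-identical copies, so a probe of 1 member may also read another.

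Keratin-associated genes and type I hair keratins sit in clusters in the mouse genome, and many of the calls lay on the chromosomes of these clusters. Chromosome 11 held 23 of the 82 genes that rose, 2.54% of its 906 tested genes, of which 18 were keratin or keratin-associated genes. Chromosome 16 held 17, 4.96% of its 343, of which 13 were keratin-associated genes. Among the cysteine-rich members on chromosome 11, Krtap4-7 rose 37.9-fold, and Krtap9-3 at least 36.4-fold, Krtap4-13 at least 25-fold, Krtap1-4 at least 23.0-fold and Krtap17-1 at least 18.2-fold. On chromosome 16, Krtap21-1 rose at least 33.8-fold, Krtap19-1 at least 27.3-fold and Krtap26-1 at least 17.9-fold.

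The smallest changes of the group were bounds, at least 1.44-fold for Krtap15, at least 1.56-fold for Krtap5-5 and at least 1.63-fold for Krtap5-4, none of which was detected on a WT array. Detection set much of what could be measured. Of the 36 tested members 16 passed the detection filter only through the BLT2KO arrays, so for these the direction was fixed by the filter, and 6 were detected on all 4 arrays. The 4 tested members that did not pass were Krtap19-2, Krtap16-3 and Krtap24-1, whose BLT2KO levels were at least 2.17-fold, 1.39-fold and 1.30-fold above the WT bound, and Krtap19-5, with a term of 0.04. A further 6 members were named on the array and not tested, among them Krtap6-1 and Krtap3-2, which were detected on 0 arrays.

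**Figure D2:**
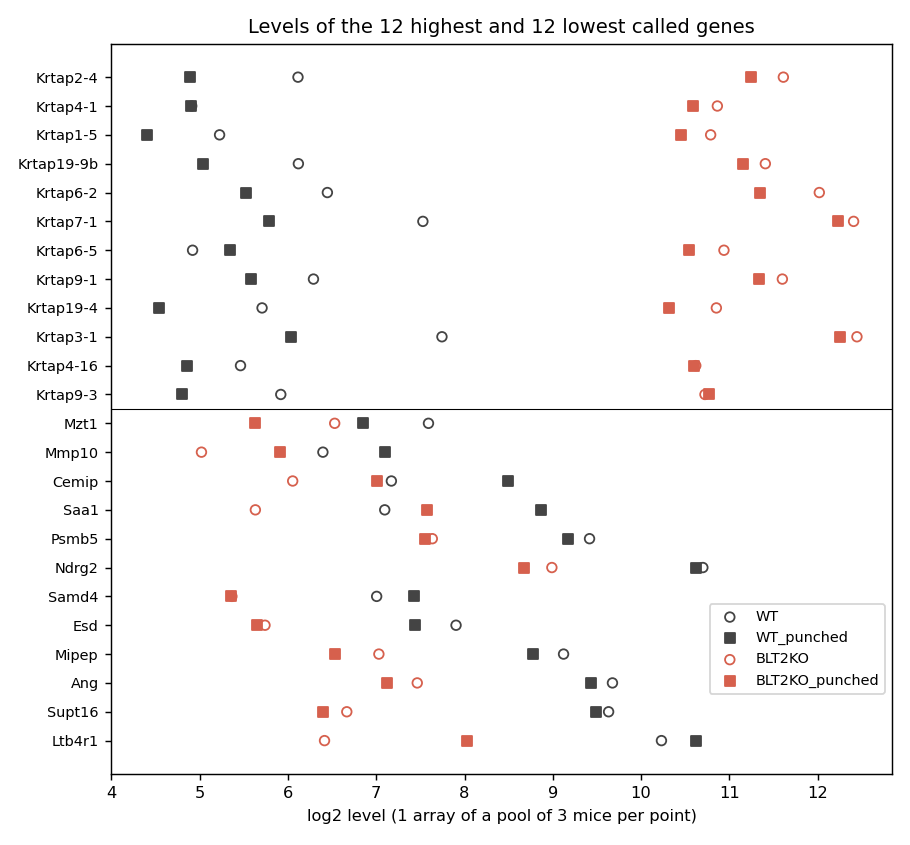
Log2 levels on the 4 arrays of the 12 genes with the highest and the 12 with the lowest genotype terms among called genes, 1 pool of 3 mice per point. For the keratin-associated genes both red symbols (BLT2KO) lie above 10 and both grey symbols (WT) below 8, while for the lower genes the order is turned, with overlap in Saa1.

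The plot of levels by array shows the separation for the 12 genes at each end. Promoters are printed for 4 of the risen hair genes and for Ltb4r1. All 4 hold the short element TATAAA, which was present in 27 of the 35 risen keratin and keratin-associated genes with a promoter in the table. Each run is the 250 bases before the RefSeq start on the gene's own strand, from assembly GRCm38.p6, in lower case, with capitals marking TATAAA or CTTTGAA on either strand.
Krtap4-1, chr11:99628240-99628489, minus strand: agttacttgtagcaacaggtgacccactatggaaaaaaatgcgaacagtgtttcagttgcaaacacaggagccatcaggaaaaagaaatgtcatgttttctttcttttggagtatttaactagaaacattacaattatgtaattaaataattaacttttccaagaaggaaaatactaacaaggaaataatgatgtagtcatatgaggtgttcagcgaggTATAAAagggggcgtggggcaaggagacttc
Krtap6-2, chr16:89420112-89420361, minus strand: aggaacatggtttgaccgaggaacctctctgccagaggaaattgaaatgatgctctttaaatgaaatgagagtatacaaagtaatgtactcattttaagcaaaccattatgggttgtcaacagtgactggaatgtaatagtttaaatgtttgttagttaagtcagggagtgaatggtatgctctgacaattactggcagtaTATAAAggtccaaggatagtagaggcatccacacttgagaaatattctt
Krtap1-5, chr11:99581017-99581266, minus strand: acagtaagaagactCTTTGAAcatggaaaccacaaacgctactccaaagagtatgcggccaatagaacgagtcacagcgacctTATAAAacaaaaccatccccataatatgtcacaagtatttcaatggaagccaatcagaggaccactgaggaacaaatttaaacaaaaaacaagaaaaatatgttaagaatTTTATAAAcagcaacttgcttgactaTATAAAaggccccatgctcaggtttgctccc
Krt34, chr11:100041555-100041804, minus strand: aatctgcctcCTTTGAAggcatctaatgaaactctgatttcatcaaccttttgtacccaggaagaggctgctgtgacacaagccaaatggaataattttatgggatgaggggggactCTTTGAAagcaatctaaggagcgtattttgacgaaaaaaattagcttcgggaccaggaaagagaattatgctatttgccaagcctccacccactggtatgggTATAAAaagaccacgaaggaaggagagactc
Ltb4r1, chr14:55765712-55765961, plus strand: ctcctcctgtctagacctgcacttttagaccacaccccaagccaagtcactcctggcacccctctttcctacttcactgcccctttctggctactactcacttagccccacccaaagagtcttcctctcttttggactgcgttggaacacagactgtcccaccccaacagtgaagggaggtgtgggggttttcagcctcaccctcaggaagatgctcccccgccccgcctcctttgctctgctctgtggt

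TATAAA, the core of the TATA box, began 31 bases before the start in Krtap4-1, Krtap1-5 and Krt34 and 49 bases before it in Krtap6-2, while the Ltb4r1 window held neither element. Of the 41 keratin and keratin-associated genes that rose, 35 had a promoter in the table. TATAAA was present on either strand in 27 of these 35 (77.1%), against 13.0% of all 27025 promoters and 7.81% of the 8223 promoters of tested genes. CTTTGAA, a core of the sites that LEF and TCF proteins bind, was present in 7 of 35 (20.0%), against 4.64% and 3.39%. CCAAT was present in 34.3%, against 34.5% and 35.6%, and the GC-box core GGGCGG in 2.86%, against 32.9% and 58.5%. Among 30 other genes that rose and had a promoter in the table, 13.3% held TATAAA, and among the 13 that fell, 4 did (30.8%). In Krtap1-5, matches to TATAAA on the 2 strands overlap. These 4 motifs were kept from a longer set after their counts had been seen, and a match is a run of letters and not a measured binding site. Keratin and keratin-associated genes that did not rise were not counted apart, and a link between a motif and the genotype difference was not tested.

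Hair shaft keratins, the filament proteins that the keratin-associated proteins cross-link, rose together with them. Of 11 named on the array 8 were tested, 7 rose and 0 fell, and the median term was 4.83. Krt34 had levels of 8.54 in WT, 6.81 in WT_punched, 12.75 in BLT2KO and 12.94 in BLT2KO_punched skin. Its groups did not overlap, and the term was 5.17 ± 0.46 (SE), or 36.0-fold, with an adjusted p of 0.0235 by limma.

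Krt86, a type II partner of these keratins, was at 7.85, 6.65, 12.31 and 12.50 in the same order and rose 35.6-fold (adjusted p = 0.00946, limma). A second detected probe of Krt86 differed by 4.42 in unwounded and 6.03 in punched skin on the log2 scale, against 4.46 and 5.85 for the first. Krt33a rose 35.9-fold, Krt33b 30.3-fold and Krt31 at least 23.7-fold. The cuticle keratin Krt82 rose at least 5.62-fold, and Krt84, of the same list, 5.80-fold. Krt35, an early keratin of the hair matrix and cuticle, had a term of 3.07 and did not pass (adjusted p = 0.186, limma).

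Most members of the inner root sheath and companion layer list had large terms, and 5 of 11 tested members passed, all higher, with a median term of 3.40. The hair follicle marker Krt25 was detected on 0 arrays and not tested. Its levels were 4.27 in WT, 4.99 in WT_punched, 4.35 in BLT2KO and 4.56 in BLT2KO_punched skin. Padi1, one of the enzymes that convert arginine to citrulline, had levels of 6.53 in WT, 6.51 in WT_punched, 9.65 in BLT2KO and 9.58 in BLT2KO_punched skin. The differences of 3.12 and 3.07 in the 2 states were nearly the same, and the term of 3.10 ± 0.12 (SE), or 8.56-fold, had an adjusted p of 0.00159 by limma. Its relative Padi3 was detected only on the BLT2KO arrays and was at least 1.82-fold higher. Tchhl1, a trichohyalin-like protein, rose 19.7-fold, the sheath keratin Krt27 11.7-fold, and Krt75, a keratin of the companion layer, 2.03-fold.

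Krt71 had levels of 11.24 in WT, 8.76 in WT_punched, 13.81 in BLT2KO and 13.86 in BLT2KO_punched skin. Its BLT2KO arrays were both above its WT arrays, but the difference was 2.57 in unwounded and 5.10 in punched skin, and the term of 3.84 ± 0.59 (SE) did not pass (adjusted p = 0.103, limma). The other sheath keratins that did not pass, Krt26, Krt72, Krt73 and Krt28, had terms of 3.90, 3.80, 3.40 and 3.32, each with a larger difference in punched than in unwounded skin. Over the whole list the median difference was 2.57 in unwounded and 4.85 in punched skin. No test compared the 2 states, because their difference is the residual of the fit.

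Other genes of the hair matrix and cuticle had a median term of 1.26 over 14 tested members, of which 3 rose and 0 fell. The 3 were Vsig8 (12.1-fold), Ly6g6d (11.2-fold) and Psors1c2 (8.33-fold), and Vsig8 is a membrane protein of the hair cuticle. Vsig8 had levels of 8.19 in WT, 6.47 in WT_punched, 11.02 in BLT2KO and 10.84 in BLT2KO_punched skin, with no overlap (term 3.60 ± 0.37 SE, adjusted p = 0.0353 by limma). Hoxc13, a homeobox factor that controls hair keratin genes, had a term of 1.63 (adjusted p = 0.0893, limma), or 1.37 with its undetected WT_punched level raised. S100a3, a calcium-binding protein of the cuticle, had a term of 3.70 with differences of 2.11 and 5.29 in the 2 states and did not pass either (adjusted p = 0.182, limma).

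Of 20 tested signals that drive hair growth, 1 rose and 0 fell, with a median term of 0.33. The one was Shh, the sonic hedgehog ligand made by the follicle matrix, with levels of 5.33 in WT, 4.65 in WT_punched, 6.62 in BLT2KO and 6.26 in BLT2KO_punched skin. It was detected on 1 WT array. Its fitted term was 1.45 ± 0.14 (SE, adjusted p = 0.0301, limma), and with the undetected level raised it was at least 2.25-fold higher. The hedgehog receptor and target Ptch1 had a term of 0.79, Bmp4 one of 0.83 and Corin, a protease of the dermal papilla undetected on the WT arrays, a bound of at least 2.31-fold, and none of these passed (adjusted p = 0.105, 0.0848 and 0.105, limma).

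Among 12 tested pigment genes of melanocytes 2 rose and 0 fell. Pmel, which forms the fibrils of the melanosome, was at 7.44 in WT, 6.56 in WT_punched, 8.97 in BLT2KO and 8.85 in BLT2KO_punched skin, and rose 3.75-fold (adjusted p = 0.0430, limma). Dct, an enzyme of melanin synthesis, rose 2.93-fold (adjusted p = 0.0430, limma). Tyrp1, of the same pathway, had a term of 1.26 (adjusted p = 0.0866, limma), while the list median was 0.39.

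The plot of terms by gene list shows the first 4 lists, of the hair shaft and follicle, apart from the others. Of the 95 calls 48 fall outside these 4 lists.

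**Figure D3:**
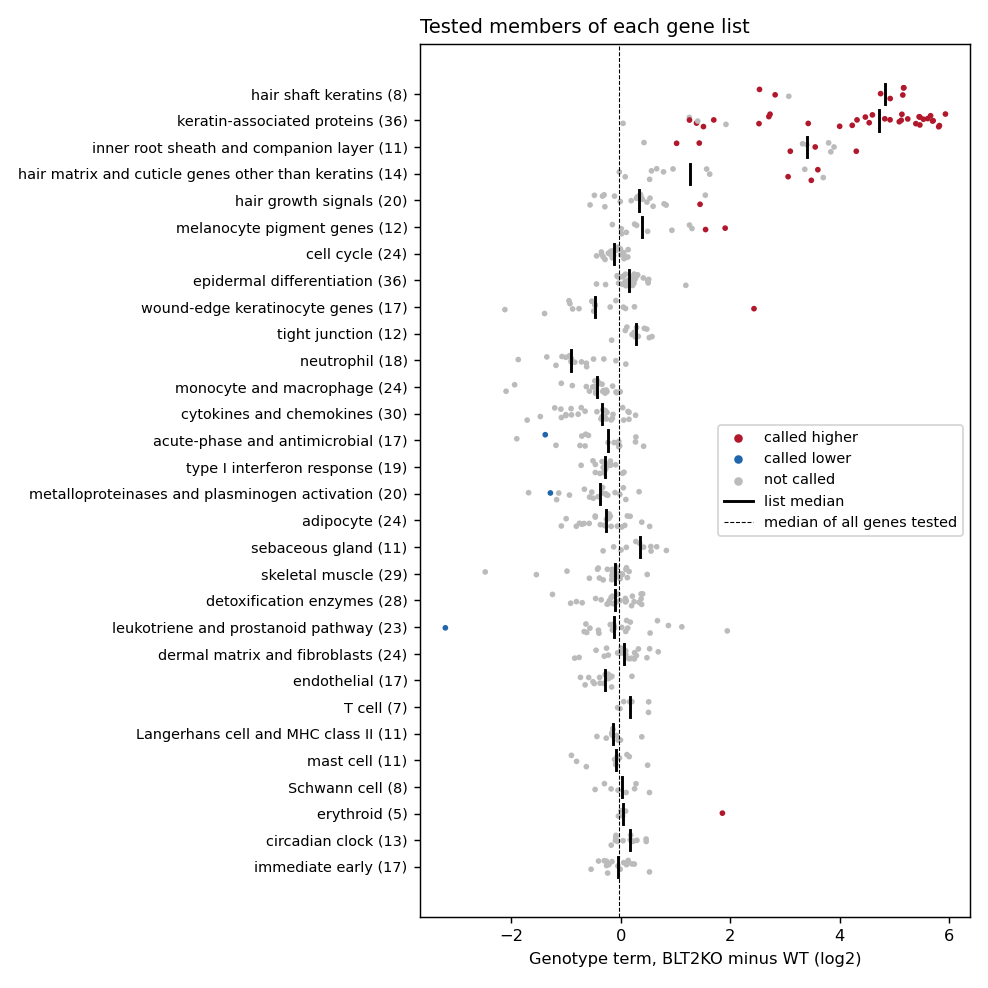
Genotype terms (log2, BLT2KO minus WT) of the tested members of each gene list, with the number tested in parentheses. Points are genes, black bars are list medians and the dashed line is the median of all genes tested; the keratin-associated list has its median at 4.71 and the neutrophil list at -0.90.

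Outside the 4 hair lists 35 genes rose, of which 29 belonged to none of the lists. All of these 29 except Rnase4 were chosen after their values were seen. Crym, a thyroid hormone binding protein, rose at least 13.8-fold, with levels of 6.76 in WT, 4.98 in WT_punched, 9.74 in BLT2KO and 9.80 in BLT2KO_punched skin. Calhm4, of a family of ion channels, rose at least 6.66-fold, Otop2, of the otopetrin proton channels, at least 4.70-fold, and Gabrp, a subunit of a GABA receptor, at least 4.41-fold. Each of these 4 genes was detected on 1 WT array. Lrrc15, a leucine-rich repeat membrane protein, was well detected on all 4 arrays at 9.12, 9.49, 11.69 and 11.47 in the order WT, WT_punched, BLT2KO and BLT2KO_punched, and rose 4.86-fold (adjusted p = 0.0162, limma).

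Slc40a1, the iron exporter ferroportin, rose 2.23-fold and Fzd5, a Wnt receptor, 2.10-fold. Slc4a1, the anion exchanger of red cells, had levels of 5.55 in WT, 6.39 in WT_punched, 7.63 in BLT2KO and 8.03 in BLT2KO_punched skin and rose 3.62-fold (adjusted p = 0.0203, limma). It was the only call among 5 tested erythroid genes, and the globin gene Hbb-bs had a term of -0.04 (0.06 with median scaling in place of quantile normalization). S100a7a, an antimicrobial S100 protein of the epidermis, rose at least 4.78-fold and was the only call among 17 tested genes of wound-edge keratinocytes, whose median term was -0.47. In that list 10 genes (58.8%) had an unadjusted p under 0.05 by limma, against 13.3% of all genes tested, and 13 terms were below 0.

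Further genes in no list rose. Pinlyp, a secreted protein with a urokinase receptor-like fold, rose 4.47-fold, Matn4, a matrilin of the extracellular matrix, 3.01-fold, and Chac1, an enzyme that breaks down glutathione, 3.01-fold. Mab21l4 rose 2.89-fold, the neuropeptide gene Npy at least 2.30-fold, the synaptotagmin Syt4 2.64-fold, the carboxypeptidase gene Cpm 2.19-fold, Rnf222 2.09-fold, Igfbp2 2.06-fold and the protease Tmprss7 2.01-fold. A further 11 were detected only on the BLT2KO arrays and have a bound. Bhlha9, a basic helix-loop-helix factor, was at least 3.03-fold higher, Tagln3 at least 2.71-fold, Lrrc75b at least 2.42-fold, Lyg2 at least 2.39-fold and Kcne1, a subunit of potassium channels, at least 2.30-fold. The bone morphogenetic protein Bmp8a was at least 2.03-fold higher, the iodide transporter Slc5a5 at least 1.69-fold, the zinc transporter Slc39a8 at least 1.51-fold, Serpina1e at least 1.44-fold, Crnn at least 1.41-fold and Csdc2 at least 1.37-fold.

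Over all tested genes 124 were detected only on the BLT2KO arrays and 28 only on the WT arrays, and 0 of these 28 passed by limma. The bounds of the 25 genes that rose and were detected only on the BLT2KO arrays ran from at least 1.37-fold for Csdc2 to at least 45.7-fold for Krtap4-1, with Krtap31-2 at least 26.9-fold, Krtap13-1 at least 15.5-fold and Krtap10-10 at least 12.9-fold higher. The adjusted p-values of these 25 rest on undetected WT levels and support no direction. Those of the 23 risen genes detected on 1 WT array use 1 undetected level as well. Further probes bore on 19 of the 82 genes, and all 20 such detected probes were higher in BLT2KO skin in both states. As measured, 18 of them were at least 2-fold higher, and the exceptions were second probes of Gabrp and Rnase4. Only the further probes of Cpm, Dct, Igfbp2, Krt86, Krtap9-3, Pinlyp, Pmel and Rnase4 were detected on a WT array. For the rest the detection filter fixed the direction, so these are no separate check of it.

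Ltb4r1, which encodes BLT1 and neighbours the gene of the missing receptor, had the lowest genotype term of all genes tested. It stood at a log2 level of 10.23 in WT, 10.62 in WT_punched, 6.41 in BLT2KO and 8.03 in BLT2KO_punched skin. The groups did not overlap, although the BLT2KO arrays differed from each other more than the WT arrays did. The term was -3.20 ± 0.30 (SE), or 9.20-fold lower, with an adjusted p of 0.0291 by limma. The annotation names no probe for Ltb4r2, and the targeted gene therefore gives no check of the labels. The sources used here do not place the Ltb4r1 probe relative to the altered sequence.

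Ltb4r1 was the only call among 23 tested genes of the leukotriene and prostanoid pathway, of which 9 (39.1%) had an unadjusted p under 0.05 by limma, against 13.3% of all genes tested. The median term of this list was -0.12. The lipoxygenases Alox12e and Alox12 had terms of 0.87 and 0.67 and the prostaglandin D synthase Ptgds 1.12 (0.74 with its undetected WT_punched level raised), and none passed (adjusted p = 0.133, 0.138 and 0.108, limma). Another lipoxygenase, Alox8, was undetected on the WT arrays at 4.89 and 4.71 and stood at 6.30 in BLT2KO and 7.19 in BLT2KO_punched skin, which did not pass either (adjusted p = 0.0847, limma).

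The lower genes were concentrated on chromosome 14, where 9 of 341 tested genes fell (2.64%), against 4 of 9854 on the rest of the genome and unplaced (0.0406%). Supt16, a subunit of the histone chaperone FACT, had levels of 9.63 in WT, 9.49 in WT_punched, 6.67 in BLT2KO and 6.40 in BLT2KO_punched skin. Its differences in the 2 states were nearly equal, and the term was -3.03 ± 0.12 (SE), or 8.16-fold lower, with an adjusted p of 0.00159 by limma. Ang, the ribonuclease angiogenin, was at 9.68, 9.43, 7.46 and 7.12 in the same order and fell 4.80-fold (adjusted p = 0.00499, limma).

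Mipep, a peptidase of mitochondrial import, fell 4.49-fold, and Esd, a serine hydrolase, 3.94-fold. Samd4, an RNA-binding repressor of translation, fell 3.62-fold, Ndrg2, a differentiation-related gene of the NDRG family, 3.55-fold, and Psmb5, a catalytic subunit of the proteasome, 3.24-fold. Mzt1, a partner of the gamma-tubulin ring complex, fell 2.20-fold. For each of these 6 genes both BLT2KO arrays were below both WT arrays.

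Chromosome 14 also held 3 genes that rose, 0.880% of its 341 tested genes, close to the 0.804% of all genes tested. Atp12a, a proton and potassium pump, rose 2.30-fold and Dct is described above. Rnase4, which shares its start with Ang in the RefSeq gene table, had levels of 11.90 in WT, 11.06 in WT_punched, 12.91 in BLT2KO and 12.30 in BLT2KO_punched skin and rose 2.18-fold (adjusted p = 0.0463, limma). A second probe of Rnase4, detected on all 4 arrays, differed by 0.31 in unwounded and 0.03 in punched skin, against 1.01 and 1.24 for the first. The probes that stood for Ang and Rnase4 passed in opposite directions.

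The stretch of chromosome 14 between the outermost lower genes, Samd4 and Mzt1, held 189 tested genes. Of these 9 fell, 2 rose and 178 did neither, and the median term of the stretch was -0.04, close to the -0.03 of all genes tested. The plot along the chromosome shows the lower genes scattered among neighbours with terms near 0. The nearest tested genes past Ltb4r1 were Adcy4, Ripk3, Nfatc4 and Khnyn, with terms of -0.57, -0.71, -0.36 and -0.42, and none passed. On the opposite side of Ltb4r2 the terms of Nop9, Dhrs1, Rabggta, Tgm1 and Nedd8 were -0.26, -0.14, -0.09, 0.15 and -0.15 (Rabggta 0.014 with median scaling in place of quantile normalization).

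**Figure D4:**
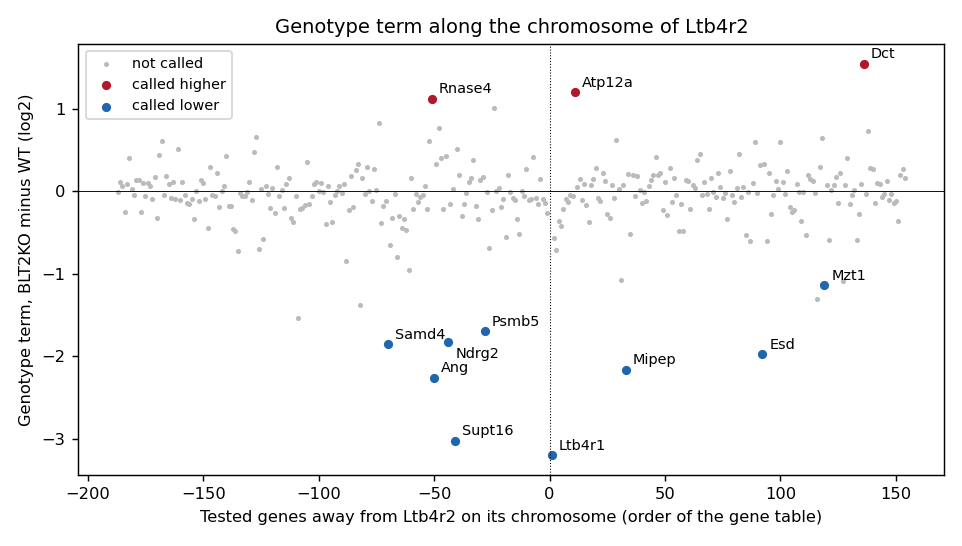
Genotype term (log2, BLT2KO minus WT) of the 341 tested genes on chromosome 14, ordered by the gene table, with the number of tested genes away from Ltb4r2 on the horizontal axis and Ltb4r2 at the dotted line. The 9 blue points, from Samd4 to Mzt1, are the genes called lower and the 3 red points those called higher.

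Other probes of the lower genes on chromosome 14 did not show the same differences. Supt16, Ndrg2 and Esd each had a second detected probe. The second probe of Supt16 differed by -0.32 in unwounded and -0.17 in punched skin, against -2.97 and -3.09 for the first. That of Ndrg2 differed by -0.32 and 0.25, and that of Esd by 0.48 and -0.25. None of these 3 probes differed at least 2-fold in either state. What set the probes of 1 gene apart was not tested.

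The 4 genes that fell elsewhere were Saa1, Cemip and Igfl3 on chromosome 7 and Mmp10 on chromosome 9. Saa1, an acute-phase serum amyloid, had levels of 7.10 in WT, 8.87 in WT_punched, 5.63 in BLT2KO and 7.58 in BLT2KO_punched skin. Its punched BLT2KO level lay above the unwounded WT level, so the genotypes overlapped across states, yet the differences of -1.47 and -1.29 within states were alike and the gene fell 2.60-fold (adjusted p = 0.0245, limma). Cemip, a hyaluronan-degrading factor, fell 2.46-fold with levels of 7.17, 8.49, 6.05 and 7.01 in the same order (adjusted p = 0.0430, limma). Mmp10, the matrix metalloproteinase stromelysin-2, was detected on 1 BLT2KO array and fell at least 2.29-fold, and Igfl3, of the insulin growth factor-like family, fell 2.01-fold. A second probe of Igfl3 differed by -1.39 in unwounded and -0.91 in punched skin.

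Saa1 was the only call among 17 acute-phase and antimicrobial genes and Mmp10 the only one among 20 metalloproteinase and plasminogen genes. In these lists 8 (47.1%) and 12 (60%) had an unadjusted p under 0.05 by limma, against 13.3% of all genes tested. The term was below 0 for 14 of the 17 and 17 of the 20. Mmp13, the collagenase of wound and cartilage remodelling, had levels of 9.90 in WT, 10.15 in WT_punched, 7.72 in BLT2KO and 8.96 in BLT2KO_punched skin. Its arrays did not overlap, but the term of -1.68 ± 0.25 (SE) had an adjusted p of 0.0996 by limma. It was one of 17 genes at least 2-fold lower in both states (0.167% of those tested), of which 12 passed and 10 lie on chromosome 14. As measured, 98 genes (0.961%) were at least 2-fold higher in both states, of which 78 passed. With undetected levels raised to the lowest detected level of their array these were 85 and 68, and the lower counts did not change. Of the 98, 41 were detected on all 4 arrays.

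Genes of neutrophils had a median term of -0.90, the lowest of the lists in the plot by gene list, and 0 of 18 tested members passed by limma, with 5 (27.8%) at an unadjusted p under 0.05, against 13.3% (1361) of all 10195 genes tested. The term was below 0 for 17 of the 18, against 55.4% of all genes tested. Retnlg, a granulocyte secreted protein, had levels of 9.16 in WT, 11.55 in WT_punched, 6.35 in BLT2KO and 10.62 in BLT2KO_punched skin, and its arrays overlapped. Its difference was -2.81 in unwounded and -0.93 in punched skin (adjusted p = 0.227, limma). The list median was -1.43 in unwounded and -0.12 in punched skin.

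Macrophage genes had a median term of -0.44 over 24 tested members and cytokines and chemokines -0.34 over 30, and 0 of either list passed by limma, with 9 of each (37.5% and 30%) at an unadjusted p under 0.05. Chil3, a chitinase-like protein of macrophages, had a term of -2.09 (-1.82 with its undetected BLT2KO level raised) and the neutrophil chemoattractant Cxcl1 of -1.47, and neither passed. The cytokine Il24 and the pattern recognition protein Ptx3 had terms of -2.11 and -2.14 (the latter -1.82 with its undetected BLT2KO level raised) and did not pass (adjusted p = 0.145 and 0.242, limma). For all 4 genes the difference was larger in unwounded than in punched skin.

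Epidermal differentiation genes had a median term of 0.15 over 36 tested members, and tight junction genes 0.28 over 12. In both lists 0 members passed by limma, with 3 in each (8.33% and 25%) at an unadjusted p under 0.05, against the same 13.3%. Cldn1, the claudin of the epidermal barrier, had levels of 9.88 in WT, 9.01 in WT_punched, 10.45 in BLT2KO and 9.58 in BLT2KO_punched skin. Its differences of 0.57 and 0.58 were alike, and the term of 0.57 ± 0.12 (SE) did not pass (adjusted p = 0.194, limma). Krt6a, a keratin of the wound edge, had a term of -0.93 (adjusted p = 0.226, limma).

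Adipocyte genes had medians of 0.13 in unwounded and -0.71 in punched skin, and skeletal muscle genes -0.09 and -0.19. Neither list had a call among its 24 and 29 tested members by limma, with 5 (20.8%) and 3 (10.3%) at an unadjusted p under 0.05. The ventricular and slow muscle myosin light chain Myl2 was at 4.56 in WT, 10.19 in WT_punched, 4.43 in BLT2KO and 5.37 in BLT2KO_punched skin. Its term of -2.47 rested on the WT_punched array alone and did not pass (adjusted p = 0.415, limma). At the edge of the threshold, Igfbp2, a binding protein of insulin-like growth factors, had an adjusted p of 0.0490 with a term of 1.05, and Ptprz1, a receptor tyrosine phosphatase, one of 0.0516 with a term of -0.98.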

How the data were processed

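Per the labels' protocols, total RNA was pooled from 3 mice per group, amplified, biotin-labelled and hybridised to Illumina arrays read with BeadStudio (no version in the sources used here). For each of 45281 probes on every array the authors deposited an intensity without normalization, and a detection p-value for each, per the file headers. A second deposited table held the same intensity values times 1 constant per array (WT 1.24, BLT2KO 1.12, WT_punched 0.963, BLT2KO_punched 0.950) and was used as an alternative. There was 1 array per group, which limits the precision of every value.

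The non-normalized intensities were corrected for background with the normexp model of neqc in limma 3.58.1 (R 4.3.3), with an offset of 16, quantile-normalized and log2-transformed. Names came from the platform annotation for 34885 probes with 1 gene, and 10396 probes stayed unnamed. Of the 10195 tested genes 10177 matched the RefSeq gene table of GRCm38.p6, which gave chromosomes and gene order. No genome build is named in the array files, and only the promoters carry coordinates. Where RefSeq listed several starts, the first in the table was used. The probe with the highest mean stood for a gene. The fit was lmFit on wound state and genotype with eBayes (1 residual and 3.81 prior degrees of freedom, prior SD 0.132 log2), Benjamini-Hochberg adjusted over all tested genes and called at an adjusted p under 0.05. For an "at least" fold, each undetected level was raised to the lowest level among detected probes of its array, for genes undetected on 1 array as well as on both arrays of a genotype. Raising levels in this way in counts of 2-fold differences was chosen after seeing the data. Counts and figures were made in Python 3.11.15 (pandas 2.3.3, numpy 2.4.6, matplotlib 3.10.9), and the fit was tested on simulated data.

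Named genes were Ltb4r1, the 12 highest and lowest called terms with clone names left out, up to 4 members of each list by p, called genes on chromosome 14 and the 5 nearest tested genes on each side of Ltb4r2, cell type markers, up to 4 bounds each way and the 4 largest terms each way that did not pass. A gene outside this rule was chosen after its values were seen, also where it is named as a further member of its list. The members and gene lists were chosen with earlier results of these data known, and no list was tested. Alternatives covered background, offset, scaling, the deposited processed values, the probe rule, the detection filter, the wound term, the prior variance and leaving out each array.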

Additional observations from a re-analysis of the deposited data

Results flagged for a closer look

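Some values had opposite signs in the 2 wound states. The difference BLT2KO minus WT of Alas2, the first enzyme of haem synthesis in red cells, was 0.80 in unwounded and -0.73 in punched skin on the log2 scale. The globin gene Hbb-bs differed by 0.38 in unwounded and -0.46 in punched skin, and the median of the 5 tested erythroid genes was 0.51 and -0.46. Hdc, the histidine decarboxylase that makes histamine, differed by -2.16 in unwounded and 0.36 in punched skin. These opposite signs rest on 1 array a group, and the difference between the states was not tested.

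Probes without a gene name took no part in the comparison of genes. When all probes were fitted together, 2221 unnamed probes were tested, of which 29 passed as higher in BLT2KO skin and 1 as lower, with terms from -2.11 to 5.75 by limma with Benjamini-Hochberg adjustment over all probes.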

How the results depend on the processing

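All 95 called genes had the same sign in the fits of 1 value a gene on 4 arrays where they were tested. The detection filter fixed the direction of 25 of them, and every setting used the same arrays, so this is no separate check. Counts depended on the setting (82 higher and 13 lower as reported). Higher and lower genes numbered 245 and 156 without background correction, 186 and 87 with an offset of 50, 196 and 35 with median scaling and 127 and 32 with a trend of the prior variance. They numbered 147 and 21 over all probes, 45 and 4 with the mean of a gene's probes (44 and 3 of them shared with the reported calls), 16 and 1 without the wound term, and 59 and 10 with no filter. Detection on all 4 arrays left 29 higher genes and a robust prior 69, with 11 and 13 lower, and the deposited processed values gave 121 and 33. The share of higher genes among calls was 86.3% as reported, 61.1% without background correction, 68.1% with an offset of 50 and 72.5% with detection on all 4 arrays. Median scaling moved the median term of all genes by 0.104. Leaving out 1 array without the wound term gave 44 higher genes without WT, 20 without WT_punched, 6 without BLT2KO_punched and 0 without BLT2KO, and 0 lower genes, by limma, with 215 to 555 genes at an unadjusted p under 0.05. With the wound term, 3 arrays leave no residual degree of freedom, so these fits gave values and no test. They put list medians at -0.19 to 0.0066 for cell cycle, -0.0581 to 0.25 for circadian clock, -0.32 to -0.26 for cytokines, 0.0504 to 0.0658 for dermal matrix, -0.17 to 0.15 for detoxification, 0.35 to 0.44 for hair growth, -0.29 to 0.0068 for immediate early, -0.16 to 0.0457 for leukotriene and prostanoid, -0.50 to -0.23 for macrophage, 0.22 to 0.32 for sebaceous gland, -0.19 to -0.0916 for skeletal muscle and 0.23 to 0.26 for tight junction genes. The genotype term of such a fit is the difference in 1 wound state. Medians in unwounded and punched skin were 3.91 and 5.66 for hair shaft keratins and -0.74 and -0.23 for wound-edge keratinocyte genes. Those of the inner root sheath, neutrophil and adipocyte lists are given above. Genes at least 2-fold higher in both states numbered 150 over all probes and 41 with detection on all 4 arrays. Those at least 2-fold lower numbered 8 without background correction, 9 in the deposited processed values, 11 with an offset of 50 and 6 with the mean of probes. The median of the keratin-associated list was 3.36 without background correction, 3.32 in the deposited processed values, 3.72 with an offset of 50 and 4.35 with the mean of probes. For hair growth signals these settings except the last gave 0.24, 0.25 and 0.26, and median scaling 0.44. For tight junction genes the 4 settings and median scaling gave 0.17, 0.14, 0.19, 0.21 and 0.36, and for metalloproteinases -0.27, -0.29, -0.31, -0.29 and -0.30. For sebaceous gland genes the 4 settings gave 0.23, 0.13, 0.25 and 0.28. Cytokines were at -0.28 without background correction, -0.27 in the deposited processed values and -0.24 with median scaling. Dermal matrix genes were at 0.10 in the deposited processed values, 0.0225 with the mean of probes and 0.18 with median scaling, which also put mast cell genes at 0.0356, neighbours of Ltb4r2 at 0.0382 and skeletal muscle genes at -0.0083. Terms of uncalled genes changed sign for Krt5 (0.0139) and Zap70 (-0.0131) in the deposited processed values, for Dcn (-0.27), Eif2s3y (-0.0278) and Rabggta (0.11) with the mean of probes, and for Acta1 (0.0291), Hbb-bs (0.0611), Krt5 (0.0862) and Rabggta (0.014) with median scaling. The cause of these changes was not tested. No paired analysis was possible because each group holds only replicate number 1, so the groups share fewer than 2 numbers.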
